A study of Mus musculus with 18 samples.

Results

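The miR-23, miR-27 and miR-24 microRNAs are made in 2 small gene clusters, called a and b, and their 5 guide strands were followed here across 18 mouse liver libraries. The members were the rows mmu-miR-23a-3p, mmu-miR-23b-3p, mmu-miR-27a-3p, mmu-miR-27b-3p and mmu-miR-24-3p, chosen by name, 5 of the 758 miRNAs measured. The livers came from wild type mice of the inbred strain C57BL/6J, and small RNA was sequenced at 62 weeks of age after regimens begun at 5 weeks. The 6 groups of 3 libraries were the LF and HF diets, each given alone, with CR (LF+CR and HF+CR) or with Ex (LF+Ex and HF+Ex). The labels leave these codes unexplained, and they are taken to mean low fat, high fat, calorie restriction and exercise. The sources used here do not state sex, the fat content, the degree of restriction, the kind of exercise or whether livers were pooled. Nothing states that the libraries of a group are separate animals, so p-values measure only how far these samples spread, and that spread may be technical. Levels are in RPM, the reads of a miRNA scaled to a fixed library total, so a share of a library. Within a library, the RPM of different members can be compared as read numbers. How evenly each miRNA was captured in sequencing is not known here, so a comparison between members is not one of molecules.

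A microRNA precursor is a hairpin that is cut into a guide strand, which is loaded into Argonaute, and a partner strand, most of which is lost. Bases 2 to 8 of the guide, its seed, select the messenger RNAs that it represses. Each cluster is transcribed as one primary transcript that carries a miR-23, a miR-27 and a miR-24 hairpin, but each mature strand can then be processed and degraded at its own pace. The family is known from endothelial and blood cells and from liver, where miR-27 represses regulators of lipid handling such as Pparg, and miR-23 represses glutaminase.

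The sequences below show which members share a seed, printed in capitals, and so could share targets. They were taken from RefSeq (GRCm38.p6), which matched 4 of the 5 members by name; miR-23b-3p is named only.
miR-23a-3p: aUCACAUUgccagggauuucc
miR-27a-3p: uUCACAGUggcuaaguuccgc
miR-27b-3p: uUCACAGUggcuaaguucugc
miR-24-3p: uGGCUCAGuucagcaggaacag
miR-128-3p: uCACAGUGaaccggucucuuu
The miR-27a-3p and miR-27b-3p seeds are the same 7 bases. No other measured miRNA with a sequence in the table (606 of 758) shared a seed with miR-23a-3p, miR-27 or miR-24-3p. Without a sequence, miR-23b-3p was outside this comparison, so whether it shares the seed of miR-23a-3p was not examined. The miR-23a-3p and miR-27 seeds share a run of 5 bases. The seed of miR-128-3p, which is made elsewhere in the genome, shares a run of 6 bases with that of miR-27, shifted by 1 base, and its values are set against those of miR-27b-3p further on.

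The 2 forms of miR-27 are told apart by a single base, shown in capitals in the next pair.
miR-27a-3p: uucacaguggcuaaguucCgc
miR-27b-3p: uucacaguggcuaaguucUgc
Counted from the 5′ end, the change is C19U, with 20 of 21 bases identical and 2 bases after it. How reads too short to reach that base were assigned is not given in the sources used here, so the split between these 2 members is uncertain to that extent. How any reads matching both miR-23a-3p and miR-23b-3p were assigned is not given either. The order, ratio and correlation of the miR-23 forms below carry that limit. The mature miR-24-3p is identical from both clusters and its locus of origin cannot be read from it.

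The a cluster lies on the plus strand at chr8:84208518-84208921 (mm10, GENCODE M21), a span of 404 bp. It holds Mir23a (chr8:84208518-84208592), Mir27a (chr8:84208672-84208758) and Mir24-2 (chr8:84208815-84208921), which overlaps an exon of the long noncoding RNA gene Gm26532; neither of the other hairpins overlaps another gene. The b cluster lies on the plus strand at chr13:63300484-63301275, a span of 792 bp, inside the protein-coding gene 2010111I01Rik on the same strand and the gene Fancc on the opposite strand. Mir23b (chr13:63300484-63300557) overlaps no exon, whereas Mir27b (chr13:63300712-63300784) and Mir24-1 (chr13:63301208-63301275) overlap an annotated exon of 2010111I01Rik.

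Depth ran from 2.38 M reads (megareads) on listed miRNAs in HF+Ex replicate 1 to 10.5 M in LF+Ex replicate 2. Mean depth was lower on the high-fat diet in each regimen, so depth and diet are not separate here. It was 5.56 M in HF against 7.78 M in LF, 3.95 M in HF+CR against 6.33 M in LF+CR and 6.11 M in HF+Ex against 8.54 M in LF+Ex. Every member was above 0 in all 18 libraries, from at least 1137 reads for miR-27a-3p to at least 14521 for miR-27b-3p. The tissue label was checked on 5 hepatocyte miRNAs, led by miR-122-5p, which summed to between 297173 and 408641 RPM. Markers of other cell types set 2 libraries apart. The epithelial and biliary miRNAs (the miR-200 family and miR-141-3p; 5 of 5 measured) summed to 5663 RPM in LF replicate 1 and 7989 RPM in HF+CR replicate 3, against 980 to 3770 RPM in the other 16. Leukocyte and Kupffer cell miRNAs (7 of 7 measured) were also highest in these 2 libraries, at 7745 and 8991 RPM, against 2171 to 7470 RPM elsewhere. The hepatocyte sum was lowest in the same 2 libraries, at 297173 and 300351 RPM, against 312827 RPM or more elsewhere. In whole liver, fewer cells of a type and less RNA per cell cannot be told apart.

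The 5 guide strands held the same order in every library: miR-27b-3p was highest, followed by miR-24-3p, miR-23a-3p, miR-23b-3p and miR-27a-3p. Their means over the 18 libraries were 5525, 3380, 2120, 1340 and 326 RPM, which rank 32, 37, 45, 55 and 102 among the 758 miRNAs. Together they made up between 0.833% (LF+CR replicate 2) and 1.71% (HF+CR replicate 3) of the listed RPM. The ranges of neighbouring members within a group did not overlap for miR-27b-3p over miR-24-3p or for miR-23b-3p over miR-27a-3p in any of the 6 groups. They overlapped for miR-24-3p and miR-23a-3p in LF, HF+CR and HF+Ex, and for miR-23a-3p and miR-23b-3p in HF+CR. The 2 clusters thus did not stand in a fixed order: the b form was the more abundant miR-27 in 18 of 18 libraries, and the a form the more abundant miR-23 in 18 of 18.

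**Figure D1:**
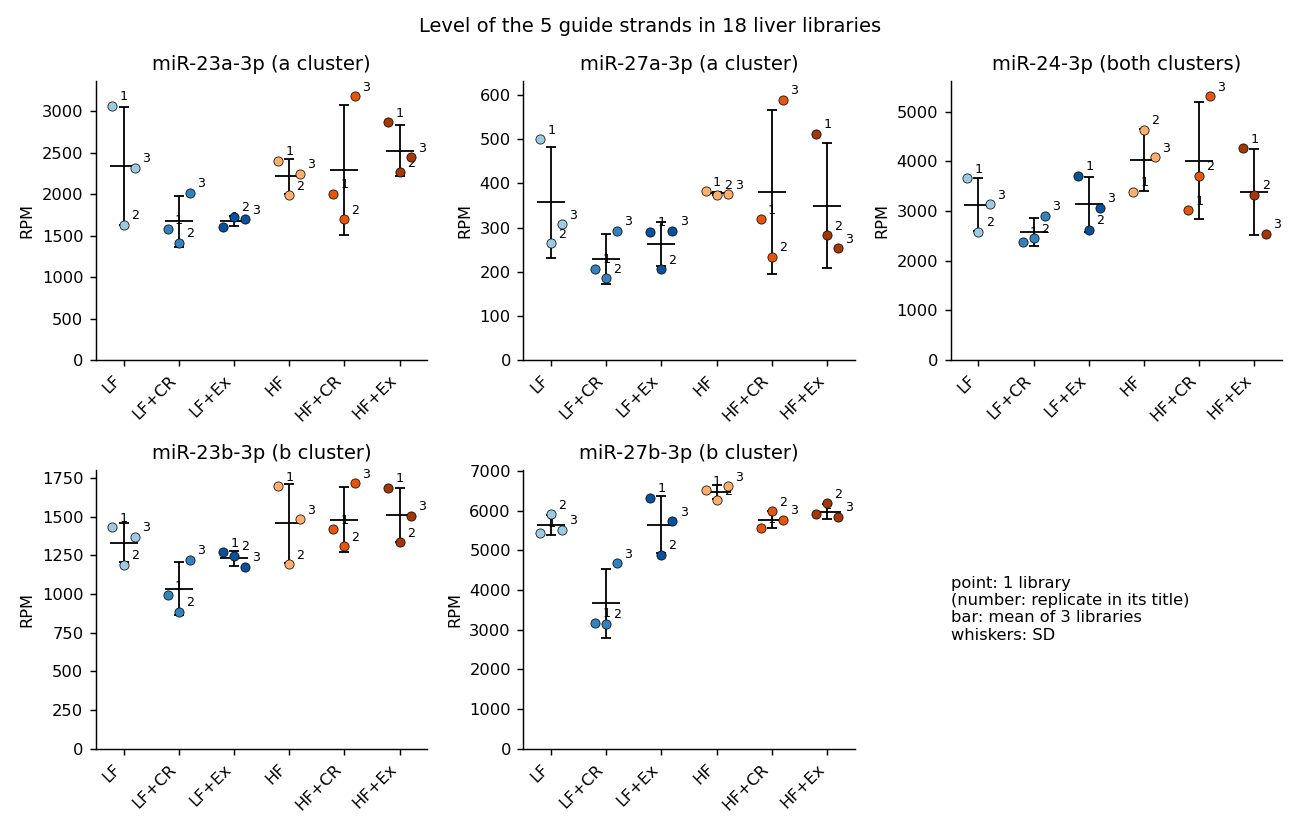
Level in RPM (y axis, from 0) of each guide strand in the 6 groups (x axis); a point is 1 library, numbered by the replicate in its title, the bar is the mean of 3 and the whiskers are the SD. The 3 LF+CR libraries of miR-27b-3p sit between 3147 and 4671 RPM, all below the lowest LF library at 5444 RPM. LF replicate 1 and HF+CR replicate 3 are the highest of their groups for every member but miR-27b-3p.

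Starting with the b cluster, miR-27b-3p was present at 5444, 5914 and 5522 RPM in LF and at 3174, 3147 and 4671 RPM in LF+CR. All 3 LF+CR libraries were below all 3 LF libraries, as for 24.8% of the 351 miRNAs that reached 5 RPM in at least 3 libraries. The third LF+CR library was nearer to LF than to the rest of its group. In LF+Ex it was at 6326, 4887 and 5726 RPM, around the LF values. In HF it was at 6508, 6261 and 6617 RPM, in HF+CR at 5561, 5984 and 5772 RPM and in HF+Ex at 5903, 6182 and 5847 RPM. The 3 HF libraries were thus above all LF, HF+CR and HF+Ex libraries. Of the same 351 miRNAs, 10.5% were wholly above LF in HF. Wholly below HF were 9.40% in HF+CR and 8.26% in HF+Ex. The group means were 5627 ± 252 RPM for LF, 3664 ± 872 for LF+CR, 5647 ± 723 for LF+Ex, 6462 ± 182 for HF, 5772 ± 212 for HF+CR and 5977 ± 179 for HF+Ex (SD, n = 3).

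The second b cluster member, miR-23b-3p, was at 1430, 1188 and 1371 RPM in LF and at 993, 886 and 1222 RPM in LF+CR. These 2 groups overlapped by 1 library. It was at 1268, 1247 and 1175 RPM in LF+Ex, at 1697, 1191 and 1482 RPM in HF, at 1418, 1307 and 1717 RPM in HF+CR and at 1686, 1335 and 1506 RPM in HF+Ex. All HF+CR libraries were above all LF+CR libraries and all HF+Ex libraries above all LF+Ex libraries, while HF and LF overlapped. The share of all miRNAs that separated in the same way was not counted for these pairs of groups.

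In the a cluster, miR-23a-3p was at 3065, 1632 and 2319 RPM in LF, at 1578, 1416 and 2018 RPM in LF+CR and at 1608, 1729 and 1695 RPM in LF+Ex. On the high-fat diet it was at 2404, 1988 and 2247 RPM in HF, at 2003, 1699 and 3180 RPM in HF+CR and at 2866, 2265 and 2441 RPM in HF+Ex. The LF and HF+CR groups each spread nearly over the whole range of the study. The partner member miR-27a-3p was at 501, 264 and 308 RPM in LF, at 207, 186 and 293 RPM in LF+CR and at 291, 206 and 293 RPM in LF+Ex. It was at 382, 375 and 375 RPM in HF, at 319, 234 and 590 RPM in HF+CR and at 513, 283 and 253 RPM in HF+Ex. The same 2 libraries, LF replicate 1 and HF+CR replicate 3, were highest in their groups for both a cluster members. HF+Ex replicate 1, the shallowest library, was highest in its group. All of these libraries were also highest in their groups for miR-23b-3p and miR-24-3p, though not for miR-27b-3p.

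The guide shared by both clusters, miR-24-3p, was at 3662, 2586 and 3141 RPM in LF, at 2386, 2450 and 2906 RPM in LF+CR and at 3713, 2624 and 3067 RPM in LF+Ex. It was at 3387, 4636 and 4088 RPM in HF, at 3018, 3716 and 5317 RPM in HF+CR and at 4270, 3333 and 2545 RPM in HF+Ex. Its highest value was in HF+CR replicate 3. The median over the 6 groups of the coefficient of variation within a group was 4.07% for miR-27b-3p, between 12.97% and 17.3% for miR-23b-3p, miR-23a-3p and miR-24-3p, and 30.0% for miR-27a-3p. With 3 libraries each, these are descriptions of spread and the members were not tested against each other.

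The question whether a regimen changed the members was put to limma, a linear model over the 351 miRNAs that reached 5 RPM in at least 3 libraries, on the log2(RPM + 1) scale; all 5 members passed that filter. A miRNA was called at a Benjamini-Hochberg adjusted p under 0.05 over all 351. Calorie restriction on the low-fat diet was the setting in which miR-27b-3p moved most. It fell by 0.64 ± 0.14 on the log2 scale (SE; 0.640 times the LF level, 95% interval -0.95 to -0.34, limma adjusted p = 0.0172). It was the only member called, 1 of 5, where 6.27% of all tested miRNAs were called (2 higher and 20 lower). The other members had values below 0 without a call: -0.62 ± 0.34 for miR-27a-3p (adjusted p = 0.260), -0.45 ± 0.24 for miR-23a-3p (0.230), -0.37 ± 0.17 for miR-23b-3p (0.158) and -0.27 ± 0.23 for miR-24-3p (0.467).

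These values stand beside a shift of the whole table. The median of all 351 miRNAs in LF+CR against LF was -0.32, and the median of the 5 members was -0.45. When libraries were rescaled by median-of-ratios size factors, which sets the median of all to 0.01, miR-27b-3p was -0.31 with an adjusted p of 0.337, and miR-24-3p turned to 0.06. On that scale miR-27b-3p was at 5433 ± 1095 in LF and 4375 ± 818 in LF+CR, and the groups overlapped. Other choices ended the call as well. When the fit held the 2 compared groups alone the adjusted p was 0.120, and 0 miRNAs were called at all. Without LF+CR replicate 1 it was -0.55 (adjusted p = 0.106) and without LF+CR replicate 2 -0.55 (0.0725). Leaving out LF replicate 1 and HF+CR replicate 3 together, chosen after seeing the data, gave -0.67 (adjusted p = 0.0360).

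**Figure D2:**
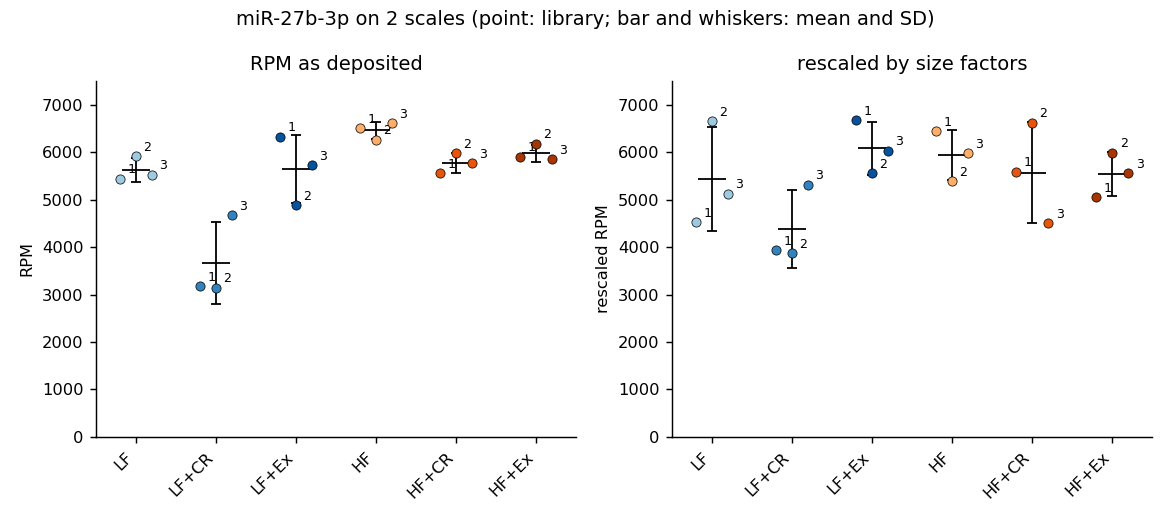
miR-27b-3p in the 6 groups (x axis) as deposited in RPM (left) and after rescaling each library by its size factor (right), both y axes from 0; points are libraries, bars means and whiskers SD. The LF+CR libraries are apart from LF on the left, at 3147 to 4671 against 5444 to 5914 RPM, and overlap them on the right, at 3876 to 5319 against 4525 to 6650.

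The partner strand of the same hairpin was read in the same libraries, so the shift of the whole table bears on it as well. miR-27b-5p was at 13.9, 13.1 and 16.5 RPM in LF and at 7.30, 9.93 and 11.8 RPM in LF+CR, again with no overlap. Of all tested miRNAs, 24.8% were wholly below LF in LF+CR. The difference for miR-27b-5p was -0.55 ± 0.24 and was not called (limma adjusted p = 0.136). It rests on 58 to 151 reads a library in these 2 groups. The lack of overlap of miR-27b-5p is given in RPM only. Every LF library had a larger size factor than every LF+CR library. Rescaling therefore lowers LF against LF+CR for this strand too, and the separation in RPM is not evidence apart from that shift. The seed neighbour miR-128-3p was at 125, 111 and 135 RPM in LF and at 57.5, 88.4 and 88.6 RPM in LF+CR. It fell by 0.68 ± 0.17 (adjusted p = 0.0289), and it too was not called after rescaling, at -0.35 (adjusted p = 0.261), with the 2 compared groups alone (adjusted p = 0.156), or without LF replicate 1 or 3 or LF+CR replicate 1 or 2, where the value lay between -0.78 and -0.47. In other groups its values did not follow those of miR-27b-3p. It was at 80.7, 83.4 and 96.5 RPM in LF+Ex, all below LF, with a difference of -0.50 ± 0.17 (adjusted p = 0.237) where miR-27b-3p was at -0.0020. In HF it was at 92.1, 101 and 106 RPM, again all below LF, with a difference of -0.31 ± 0.17 (adjusted p = 0.506) where miR-27b-3p was at 0.20. In HF+Ex it was at 130.5, 123 and 140.2 RPM, all above HF, with a difference of 0.39 ± 0.17 (adjusted p = 0.525) where miR-27b-3p was at -0.11. None of these 3 differences was called, and the 2 miRNAs were not tested against each other. Of all tested miRNAs, 15.1% were wholly below LF in LF+Ex, 8.55% wholly below LF in HF and 9.69% wholly above HF in HF+Ex.

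On the high-fat diet, calorie restriction gave no call for any member. miR-27b-3p was below HF in all 3 HF+CR libraries, by 0.16 on the log2 scale (-0.16 ± 0.14, adjusted p = 0.633), and the other 4 lay between -0.09 and 0.03. In this comparison 0% of the 351 miRNAs were called, with 53 at an unadjusted p under 0.05. The difference between the diets in the effect of calorie restriction on miR-27b-3p was 0.48 ± 0.20 (95% interval 0.05 to 0.91; limma adjusted p = 0.297) and was not called, as for the other members; 0.855% of miRNAs were called in it. A different response of miR-27b-3p on the 2 diets was thus not shown. Averaged over both diets, calorie restriction lowered miR-27b-3p by 0.40 on the log2 scale (-0.40 ± 0.10, adjusted p = 0.0335), the 1 member called of 5, with 6.55% of all miRNAs called and a median of all of -0.17. The LF and LF+CR libraries carry most of that average. The call was lost in 7 of 12 fits that left out 1 library, namely LF replicate 1 or 3, LF+CR replicate 1 or 2, HF replicate 2 or 3, or HF+CR replicate 2, where the value stayed between -0.42 and -0.35. It was also lost after rescaling (-0.21, adjusted p = 0.326) and when the fit held the 4 compared groups alone (adjusted p = 0.0738). The other members were at -0.36 (miR-27a-3p), -0.23 (miR-23a-3p), -0.17 (miR-23b-3p) and -0.15 (miR-24-3p), and the last 2 turned to 0.02 and 0.04 after rescaling.

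Marker miRNAs moved in these comparisons too, and their part in the result was not tested. In LF+CR against LF no marker list had a called miRNA. The leukocyte and Kupffer cell list had a median of -0.59 with 0 of 7 called, and summed to 2171 to 2971 RPM against 2355 to 7745 RPM in LF. The endothelial list (miR-126-3p and miR-126-5p, 2 of 4 measured) had a median of -0.20 and the hepatocyte list of 0.13. The medians were -0.63 for 4 erythroid miRNAs, -0.33 for 7 stellate and mural miRNAs, -0.26 for 5 epithelial and biliary miRNAs and -1.18 for 2 neuronal miRNAs. Fragment-like entries, taken as a sign of RNA quality, had a median of 0.58 over the 2 tested, and the 5 measured summed to 32.9 to 40.6 RPM against 20.6 to 25.0 RPM in LF. The 2 pancreatic miRNAs that were tested had a median of 1.15. The 4 pancreatic miRNAs measured summed to 348 RPM in LF+CR replicate 1 against 4.25 and 13.3 RPM in the other LF+CR libraries. No list had a called miRNA in HF+CR against HF or in CR averaged over diets. In that order, the medians were -0.45 and -0.70 for leukocyte and Kupffer cell miRNAs and 1.06 and 0.82 for fragment-like entries. They were 0.69 and 0.22 for epithelial and biliary, 1.44 and 1.30 for pancreatic and 1.98 and 0.40 for neuronal miRNAs. The remaining lists lay between -0.44 and 0.14.

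The diet itself was compared in 2 ways. In HF against LF with no further regimen, no member was called, against 0.285% of all miRNAs. miR-27b-3p was higher in all 3 HF libraries at 0.20 ± 0.14 (adjusted p = 0.584). miR-24-3p had the largest value among the members at 0.37 ± 0.23 (adjusted p = 0.526), with overlapping groups. Averaged over the 3 regimens, which sets 9 HF libraries against 9 LF libraries, both b cluster members rose. miR-27b-3p was 0.32 ± 0.08 higher (1.25 times, adjusted p = 0.0170) and miR-23b-3p 0.31 ± 0.10 higher (1.24 times, adjusted p = 0.0430). The a cluster members and miR-24-3p had values of the same size with wider errors and were not called: 0.38 ± 0.20 for miR-27a-3p (adjusted p = 0.155), 0.36 ± 0.13 for miR-24-3p (0.0637) and 0.32 ± 0.14 for miR-23a-3p (0.0939). A difference between the clusters in the effect of diet was therefore not shown.

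That comparison called 18.5% of all miRNAs (56 higher, 9 lower), and the median of all was 0.19, against 0.32 for the 5 members. A count of 2 in 5 is to be read against that share. After rescaling, neither member was called, at 0.12 for miR-27b-3p (adjusted p = 0.440) and 0.10 for miR-23b-3p (0.443). The call of miR-27b-3p held in each of the 18 fits that left out 1 library (adjusted p 0.00453 to 0.0393). That of miR-23b-3p held in 6 of them, namely without LF replicate 1, LF+CR replicate 3, HF replicate 2, HF+CR replicate 1 or 2 or HF+Ex replicate 2, and its adjusted p lay between 0.0237 and 0.0875 over all 18. In 3 of these fits miR-24-3p was called, and in 2 miR-23a-3p. Without LF replicate 1 and HF+CR replicate 3, the added alternative, miR-27b-3p, miR-23b-3p and miR-23a-3p were called (adjusted p = 0.0274, 0.0471 and 0.0461). Leukocyte and Kupffer cell miRNAs were higher on the high-fat diet in this comparison, with 5 of 7 called and a median of 0.79, and 1 of 2 endothelial miRNAs was called, with a median of 0.21. The stellate and mural list had 1 of 7 called and a median of -0.01, and the erythroid, neuronal, pancreatic, epithelial and hepatocyte lists had medians between -0.89 and -0.09 with 0 called. For the fragment-like entries the median was 0.89, neither of the 2 tested was called, and the 5 measured summed to 28.3 to 115 RPM in HF against 20.6 to 25.0 in LF, to 114 to 307 in HF+CR against 32.9 to 40.6 in LF+CR, and to 15.5 to 397 in HF+Ex against 16.95 to 39.0 in LF+Ex. The part of these lists in the result was not tested.

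**Figure D3:**
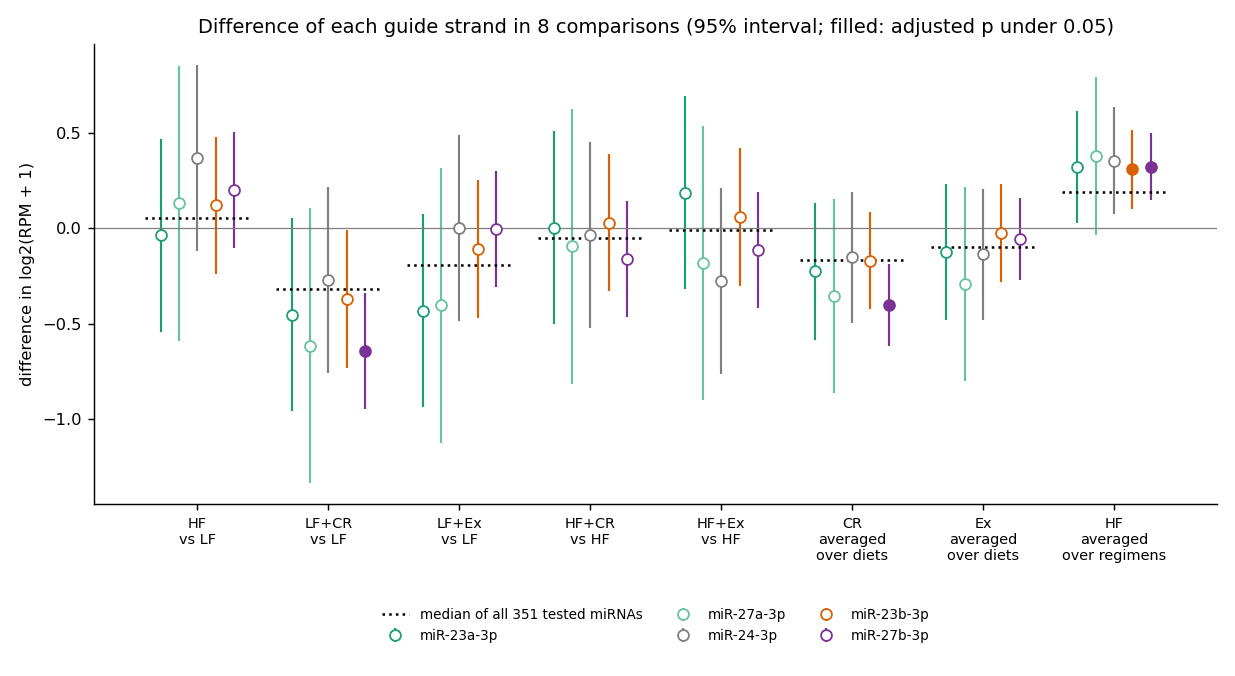
Difference in log2(RPM + 1) (y axis) of the 5 guide strands in 8 comparisons (x axis), with 95% limma intervals; filled points have an adjusted p under 0.05 and dotted lines are the median of all 351 miRNAs. The 4 filled points are miR-27b-3p in LF+CR against LF, in CR averaged over diets and in HF averaged over regimens, and miR-23b-3p in the last.

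Exercise left no member called. In LF+Ex against LF, miR-27b-3p was at -0.0020 ± 0.14 (95% interval -0.31 to 0.30), and the a cluster members had the lowest values, -0.43 ± 0.24 for miR-23a-3p (adjusted p = 0.457) and -0.40 ± 0.34 for miR-27a-3p (0.577); the median of all was -0.19 and 0% were called, with 41 at an unadjusted p under 0.05. In HF+Ex against HF, miR-27b-3p was lower in all 3 libraries at -0.11 ± 0.14 (adjusted p = 0.926), and the other members lay between -0.28 and 0.19; 0.855% of miRNAs were called. Averaged over diets, miR-27b-3p was at -0.06 ± 0.10 (95% interval -0.27 to 0.16, adjusted p = 0.926), with 0% of miRNAs called and 12 at an unadjusted p under 0.05. The difference between diets in the effect of exercise called 0.855% of miRNAs and no member, with miR-23a-3p farthest from 0 at 0.62 ± 0.34 (adjusted p = 0.379).

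The contrast of the clusters was tested within libraries as the ratio of the b form to the a form, which cancels the library total and any size factor but for the pseudocount. miR-23b-3p was between 0.467 and 0.789 times miR-23a-3p, with a median of 0.628, subject to the unstated assignment of reads that match both. miR-27b-3p was between 9.78 and 25.5 times miR-27a-3p, with a median of 17.5, so miR-27a-3p made up 3.77% to 9.27% of miR-27 reads. By group, the miR-27 ratio was 17.1 ± 5.80 in LF, 16.1 ± 0.801 in LF+CR, 21.7 ± 2.10 in LF+Ex, 17.1 ± 0.475 in HF, 17.6 ± 7.88 in HF+CR and 18.8 ± 6.35 in HF+Ex (SD, n = 3). The miR-23 ratio was 0.595 ± 0.131, 0.620 ± 0.0130, 0.734 ± 0.0492, 0.655 ± 0.0535, 0.673 ± 0.119 and 0.598 ± 0.0163 in the same order.

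No comparison of the ratios was called. Over 24 exact two-sided permutation tests (3 ratios in 8 comparisons), the smallest adjusted p was 0.84. Labels were exchanged between the compared groups, and within each diet or regimen where these were averaged. Between 2 groups of 3 the smallest p this test can give is 0.1, and it was not reached; averaged over diets or regimens it could go to 0.005 and 0.00025. In LF+CR against LF, where miR-27b-3p fell, the log2 ratio of miR-27b-3p to miR-27a-3p differed by -0.03 (exact permutation p = 1). In HF averaged over regimens it differed by -0.06 (exact permutation p = 0.765), and the miR-23 ratio by -0.01 (exact permutation p = 0.907). Among the 3 regimens behind that average, the miR-23 ratio was lower in all HF+Ex libraries (0.588, 0.589 and 0.617) than in all LF+Ex libraries (0.789, 0.721 and 0.693), and the other regimens overlapped. That pair of groups was not tested by itself. The largest differences were in LF+Ex against LF, 0.40 for miR-27 (exact permutation p = 0.3) and 0.32 for miR-23 (exact permutation p = 0.3). The ratios were lowest for both families in LF replicate 1 (0.467 and 10.9) and HF+CR replicate 3 (0.540 and 9.78) within their groups. HF+Ex replicate 1 (0.588 and 11.5), HF replicate 2 (0.599 and 16.7) and LF+Ex replicate 3 (0.693 and 19.5) were also lowest in theirs. In HF+Ex replicate 1, epithelial and biliary miRNAs summed to 1172 RPM and leukocyte and Kupffer cell miRNAs to 7097 RPM. Its fragment-like entries, taken as a sign of RNA quality, summed to 397 RPM, the highest of the 18 libraries. They summed to 15.5 and 19.3 RPM in HF+Ex replicates 2 and 3. Without LF replicate 1 and HF+CR replicate 3, the miR-27 ratio difference turned from 0.07 to -0.22 in HF against LF and from -0.07 to 0.30 in HF+CR against HF. The miR-23 ratio difference turned from 0.16 to -0.01 in HF against LF and from 0.08 to -0.08 in LF+CR against LF. The part of the epithelial and leukocyte miRNAs and of the fragment-like entries in the ratio was not tested.

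The partner strands gave a further contrast. miR-27a-5p averaged 15.97 RPM and miR-27b-5p 13.47 RPM, nearly equal although their guides differ about as the ratio above. The 5p strand was thus 2.40% to 7.08% of the reads of both miR-27a strands, with a median of 4.56%, but 0.175% to 0.329% for miR-27b, with a median of 0.239%; these shares carry the uncertainty of the guide split. For miR-23a the median was 0.0889% and for miR-23b 0.183%. In the comparisons, miR-27a-5p was highest on the high-fat diet, at 0.55 ± 0.20 averaged over regimens, and was not called (limma adjusted p = 0.0625).

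The partner strands of miR-24, unlike its guide, differ between the loci, and are printed next with the bases that differ in capitals. They share the first 16 bases, seed included, and the last 4.
miR-24-1-5p (b cluster): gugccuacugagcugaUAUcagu
miR-24-2-5p (a cluster): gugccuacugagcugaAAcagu
Both were near the floor of the table. miR-24-2-5p was above 0 in 17 of 18 libraries with 269 reads in all and a mean of 2.15 RPM, and miR-24-1-5p in 6 libraries with 14 reads in all and a mean of 0.104 RPM. The smallest value listed is 2 reads, so a listed 0 can stand for 0 reads or 1. Zeros in the high-fat groups also come from libraries with a lower mean depth. The a locus strand was thus the more abundant in the 17 libraries in which it was listed, and both were listed at 0 in HF+Ex replicate 1. The share of miR-24-3p that comes from each locus cannot be read from these levels. Neither strand passed the filter. Their log2 ratio was not called in any comparison, with the largest difference, 1.01, in HF+Ex against HF (exact permutation p = 0.3). The hairpins on the opposite strand at the miR-24 loci gave miR-3074-5p above 0 in 10 libraries and miR-3074-1-3p in 4, with at most 4 and 2 reads.

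Members of a cluster share a transcript, and their levels over the 18 libraries were compared on the log2(RPM + 1) scale. All 10 pairs of guides had a positive r, and 9 were called at an adjusted p under 0.05 over 16 pairs (permutation, 100000 resamples). The highest were miR-23a-3p with miR-27a-3p (r = 0.86, rho = 0.74, permutation p = 1e-05 and 0.00061) and miR-23a-3p with miR-23b-3p (r = 0.84, rho = 0.88, permutation p = 1e-05 for both). The value 1e-05 is the smallest that these permutations can give. The lowest was miR-23a-3p with miR-27b-3p (r = 0.46, rho = 0.19, permutation p = 0.0518 and 0.456; adjusted 0.0828 for r). Within the b cluster, miR-23b-3p with miR-27b-3p had r = 0.73 and rho = 0.42 (permutation p = 0.00088 and 0.0852; adjusted 0.00282 and 0.170). Without LF+CR replicates 1 and 2, the libraries farthest from the miR-23b-3p median, its r was 0.29, so that relation rests on those 2 libraries; after rescaling, with all 18 libraries, it was 0.50 (permutation p = 0.0326, adjusted 0.222). Without LF replicate 1 and HF+CR replicate 3, the first pair kept r = 0.76 and the second 0.86.

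Fewer pairs were called once group means were subtracted or libraries rescaled. With group means subtracted, 4 of 10 pairs were called: miR-23a-3p with miR-23b-3p (r = 0.82, permutation p = 0.00013, adjusted 0.00208), miR-23a-3p with miR-27a-3p (0.85, permutation p = 0.00221, adjusted 0.0177), miR-27a-3p with miR-24-3p (0.79, permutation p = 0.00673, adjusted 0.0269) and miR-23b-3p with miR-27a-3p (0.68, permutation p = 0.00393, adjusted 0.0210). miR-27b-3p was in none of them, with r between 0.13 and 0.35. After rescaling by size factors none of the 10 was called, with r between -0.21 and 0.58, the highest again for miR-23a-3p with miR-27a-3p (permutation p adjusted to 0.194). RPM are shares of one total, and these correlations are of shares. The partner strands of miR-24 showed no called relation with the guides of their clusters, with r between -0.28 and 0.15.

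**Figure D4:**
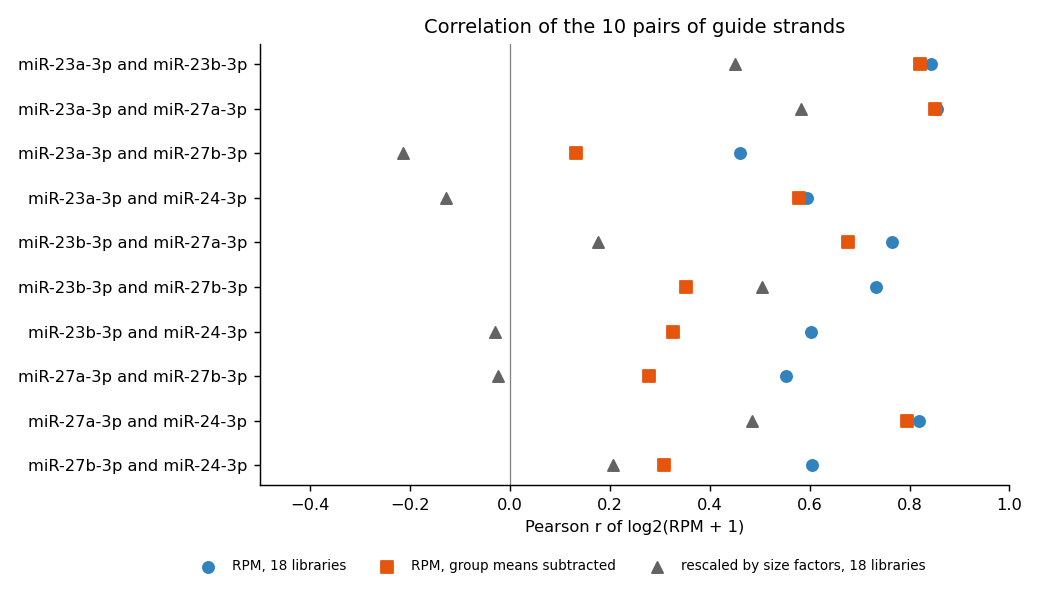
Pearson r over 18 libraries (x axis) for the 10 pairs of guide strands (y axis), from log2(RPM + 1), from the same values with group means subtracted, and after rescaling by size factors. The miR-23a-3p and miR-27a-3p pair is the rightmost on all 3 scales, at 0.86, 0.85 and 0.58, and pairs with miR-27b-3p lie at 0.35 or lower once group means are subtracted.

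The 3 miRNAs outside the family with the highest r to each member over the 18 libraries are given as a description without a test. miR-27a-3p and miR-24-3p had miR-214-3p in common, and no other pair of members shared one. For miR-23a-3p they were miR-223-3p, a myeloid miRNA (r = 0.90), miR-15b-5p (0.87) and miR-146b-5p (0.87). For miR-27a-3p they were miR-199a-5p (0.94), miR-195a-5p (0.87) and miR-214-3p (0.87); miR-199a and miR-214 are made from one transcript in stellate and other mesenchymal cells. For miR-24-3p they were miR-214-3p (0.87), miR-500-3p (0.86) and miR-132-3p (0.84). For miR-23b-3p they were miR-574-3p (0.87), miR-532-3p (0.83) and miR-15b-3p (0.83), and for miR-27b-3p miR-1839-3p (0.86), miR-148b-3p (0.83) and miR-423-3p (0.83). The median r to all other tested miRNAs lay between 0.26 for miR-27b-3p and 0.40 for miR-27a-3p.

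Other miRNAs known for lipid and glucose metabolism were set beside the family, from a list of 18, of which 17 were tested. In LF+CR against LF, where miR-27b-3p fell, 2 rose and 1 fell, 17.6% of the list against 6.27% of all miRNAs, with a list median of 0.13. miR-33-5p, which lies in a sterol regulator gene and represses cholesterol export, rose by 1.03, miR-29a-3p by 0.54, and miR-34a-5p, a p53 target that represses Sirt1, fell by 1.93. After rescaling these 3 were still called, at 1.33, 0.88 and -1.60 (adjusted p = 0.0135, 0.00537 and 0.0446). None of the list was called without LF replicate 3, LF+CR replicate 1 or LF+CR replicate 2, or with the compared groups alone. Of the 6 fits that left out 1 library, miR-29a-3p was called in 3, miR-34a-5p in 2 and miR-33-5p in 1. When no filter was used, none of these 3 miRNAs was called.

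With calorie restriction averaged over diets 3 fell and none rose, 17.6% of the list against 6.55% of all: miR-103-3p by 0.49, miR-107-3p by 0.60 and miR-34a-5p by 1.50. After rescaling miR-34a-5p alone of these was called (-1.31, adjusted p = 0.0248). None of the list was called without HF replicate 2 or 3 or with the compared groups alone, and 1 was without LF+CR replicate 1. With the high-fat diet averaged over regimens 3 rose and 1 fell, 23.5% of the list against 18.5% of all, so the count is near the background, with a list median of -0.06 against 0.32 for the members and 0.19 for all. miR-223-3p was 1.16 higher, miR-34a-5p 0.91 higher and miR-33-5p 0.56 higher, and miR-96-5p fell by 1.04. After rescaling miR-223-3p and miR-96-5p were still called (adjusted p = 0.0156 and 0.00837), and miR-34a-5p and miR-33-5p were not (0.0659 and 0.132). Of the 18 fits that left out 1 library, miR-34a-5p was called in 5, and miR-223-3p, miR-33-5p and miR-96-5p in all 18.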

How the data were processed

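Small RNA of 18 liver libraries was measured as RPM (reads scaled to a fixed library total) for 758 mature miRNAs, deposited by the authors as a series table and per-sample tables, per the file headers; both held the same values. Per the submitters' processing notes, reads were placed on mm10. The sources used here do not name the aligner, counter or miRNA release, or how reads matching several miRNAs were treated. All values were whole multiples of 1 step per library (100%, tolerance 0.001 reads), taken as the RPM of 1 read, which gave the depth; these reads are not independent molecules. RPM is a share, and a shift in a few abundant miRNAs shifts all others.

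Tests used limma 3.58.1 in R 4.3.3 (lmFit and eBayes, the latter with a trend on mean level) on log2(RPM + 1) for miRNAs at 5 RPM or more in at least 3 libraries (351 of 758), with all 18 libraries in 1 fit, 10 comparisons, two-sided; p-values were adjusted by Benjamini-Hochberg over all 351. The pseudocount understates changes of low miRNAs. Ratios were tested by exact permutation and correlations by 100000 permutations (numpy 2.4.6, Python 3.11.15). The scripts were tested on simulated data. Sample titles gave the group and the replicate number.

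Named miRNAs were the members, the other strands of their hairpins, miR-128-3p, the 3 miRNAs closest to each member in r, and the called miRNAs of a lipid and glucose list. The members, comparisons and lists were chosen with earlier results of these data known. Older names in the table were matched to the marker lists for miR-126, miR-142 and miR-486-5p. Alternatives were another pseudocount (5), no filter or one of 50 RPM, size factors, no trend, compared groups alone, a replicate block, leaving out each library, and, added after seeing the data, voom weights, leaving out 2 libraries together, and the same alternatives for the lipid and glucose list. Other marker lists are given for completeness: stellate and mural miRNAs summed to 7124 to 16090 RPM (highest in HF+CR replicate 3), erythroid to 2792 to 8293, neuronal to 4.80 to 241 and fragment-like entries to 15.5 to 397.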

Additional observations from a re-analysis of the deposited data

How the results depend on the processing

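The voom weights, the pseudocount of 5 RPM, the filter of 50 RPM and dropping the trend changed no count of called members. Rescaling by size factors ended all of them: 0 members instead of 1 in LF+CR against LF, 0 instead of 1 in CR averaged over diets and 0 instead of 2 in HF averaged over regimens, and 0 instead of 9 called correlations. It also turned miR-24-3p to 0.065 in LF+CR against LF, miR-23b-3p to 0.024 and miR-24-3p to 0.043 in CR averaged over diets, and miR-27b-3p to 0.18 in LF+Ex against LF and to 0.038 in Ex averaged over diets. Fits of the compared groups alone called 0 members in LF+CR against LF and 0 in CR averaged over diets. Over all 351 miRNAs, calls in LF+CR against LF went from 22 to 14 with size factors and to 0 with the compared groups alone, and in CR averaged over diets from 23 to 8 and 0. Without a filter 1 member was called in HF averaged over regimens. A count model on whole reads, planned as an alternative, was not run. The cause of these changes was not tested.

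Leaving out 1 library gave 0 to 1 called members in LF+CR against LF (0 without LF+CR replicate 1 or 2), 0 to 1 in CR averaged over diets and 1 to 4 in HF averaged over regimens (4 without LF replicate 1, 3 without HF+CR replicate 1 or 2), and over all miRNAs 5 to 40, 0 to 78 and 37 to 91 calls in the same order. It gave miR-27b-3p at -0.088 to 0.10 in LF+Ex against LF. The log2 ratio differences, none of them called, crossed 0 for miR-23 in HF against LF (-0.0065 to 0.31), LF+CR against LF (-0.081 to 0.24), HF+CR against HF (-0.079 to 0.18), CR averaged over diets (-0.028 to 0.13) and HF averaged over regimens (-0.066 to 0.040). They crossed 0 for miR-27 in HF against LF (-0.22 to 0.29), LF+CR against LF (-0.32 to 0.20), HF+CR against HF (-0.39 to 0.30), HF+Ex against HF (-0.11 to 0.39), CR averaged over diets (-0.21 to 0.14) and HF averaged over regimens (-0.16 to 0.067), and for the miR-24 partner strands in HF averaged over regimens (-0.0044 to 0.21). Without both LF replicate 1 and HF+CR replicate 3 the miR-23 differences were -0.0065 in HF against LF and -0.081 in LF+CR against LF, and the miR-27 differences -0.22 in HF against LF and 0.30 in HF+CR against HF.

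No pairing of libraries by replicate number was seen, which does not show that none was made. Deviations of same-numbered libraries had a median r of 0.02 (-0.42 to 0.61 over 45 pairs). Those of libraries with different numbers had a median r of 0.0065 (-0.74 to 0.66 over 90 pairs). Of the 18 libraries, 7 correlated best with their own number. With the replicate block, 1 member was called in LF+CR against LF, 1 in CR averaged over diets, 2 in HF averaged over regimens and 0 in the other 7 comparisons, as without it, and the paired ratio tests called none. The partner strands of miR-24 are limited by depth, with at most 4 and 40 reads a library.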
